A study of Mus musculus with 7 samples.

Results

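The small leucine-rich proteoglycans measured here were 10 genes (Lum, Dcn, Bgn, Fmod, Ogn, Omd, Prelp, Kera, Aspn and Podn) of 22180, in adrenal glands taken whole from females at 2 months of age. A member was any gene of these symbols to which a probe set of the array mapped alone, and all 10 were found, on 13 probe sets. The 4 knockout (KO) mice carried sf1:Cre and floxed Ezh2 alleles (Ezh2 Fl/Fl), and the 3 wild-type (WT) mice were littermates, about whose alleles the labels say no more. Both groups were kept on an uncontrolled mixed background, mainly of C57BL/6 and SV129. The Cre is driven by the gene of steroidogenic factor 1, which is active in steroid-producing cells of the cortex. Which cells of the gland lost Ezh2 was not measured here. Each array holds RNA of the whole gland, and values are RMA levels on a log2 scale, so that 1 unit is a doubling.

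Small leucine-rich proteoglycans are secreted proteins built around a curved array of leucine-rich repeats, which binds collagen. Fibroblast-like cells make most of them, and in connective tissue they set the diameter and spacing of collagen fibrils and hold growth factors such as TGF-beta in the matrix. Decorin (Dcn), biglycan (Bgn) and asporin (Aspn) form class I. Lumican (Lum), fibromodulin (Fmod), Prelp, keratocan (Kera) and osteomodulin (Omd) form class II, osteoglycin (Ogn) belongs to class III and podocan (Podn) to class V. Ezh2 is the enzyme of Polycomb repressive complex 2 that methylates lysine 27 of histone H3, a mark of silenced genes. Many of these proteoglycan genes lie side by side in the mouse genome. In the gene order of the reference annotation, Dcn and Lum are neighbours on chromosome 10, with Kera beyond 1 RIKEN gene, Aspn, Omd and Ogn on chromosome 13, and Prelp and Fmod on chromosome 1.

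The sequences shown are the 250 bases before the annotated start of Aspn, Omd and Ogn, 3 members that lie together on chromosome 13, and of Podn, whose window is rich in CG. They are RefSeq sequences of build GRCm38.p6, written 5′ to 3′ on the strand of the gene, with every CG dinucleotide in capitals. CG-rich promoters are a common target of Polycomb complexes in mammals. Of the 10 genes 8 had an entry among the promoter sequences used, and Lum and Dcn had none.
Aspn: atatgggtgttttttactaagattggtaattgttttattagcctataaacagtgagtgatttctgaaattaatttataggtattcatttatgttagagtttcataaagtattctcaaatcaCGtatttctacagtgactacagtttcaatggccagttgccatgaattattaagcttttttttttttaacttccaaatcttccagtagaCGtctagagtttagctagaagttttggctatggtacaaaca
Omd: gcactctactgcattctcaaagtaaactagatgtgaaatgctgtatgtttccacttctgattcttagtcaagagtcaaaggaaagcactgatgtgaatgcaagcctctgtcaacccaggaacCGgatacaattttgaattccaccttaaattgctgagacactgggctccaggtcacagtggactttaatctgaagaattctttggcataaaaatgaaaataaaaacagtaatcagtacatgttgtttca
Ogn: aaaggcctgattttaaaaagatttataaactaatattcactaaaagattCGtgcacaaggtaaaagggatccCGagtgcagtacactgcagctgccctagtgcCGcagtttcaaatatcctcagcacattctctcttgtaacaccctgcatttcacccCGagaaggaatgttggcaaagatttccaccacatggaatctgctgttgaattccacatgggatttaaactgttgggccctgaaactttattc
Podn: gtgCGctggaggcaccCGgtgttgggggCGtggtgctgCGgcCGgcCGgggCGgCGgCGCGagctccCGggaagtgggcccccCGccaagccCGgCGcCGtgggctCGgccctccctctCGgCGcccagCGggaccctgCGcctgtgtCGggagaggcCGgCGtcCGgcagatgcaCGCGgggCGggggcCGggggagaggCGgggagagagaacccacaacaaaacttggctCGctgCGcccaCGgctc
These lie at chr13:49544193-49544442, chr13:49582212-49582461 and chr13:49607765-49608014 on the plus strand and at chr4:108031955-108032204 on the minus strand. The dinucleotide CG, which reads the same on both strands, occurred 2 times in the Aspn window, 1 time in that of Omd and 4 times in that of Ogn. The 32 CG of the Podn window stood far above these. Over all 32851 promoter windows of this length the median was 6 CG, and 92.1% held at least 1. The other start of Podn had 7, Bgn 7, Prelp 5, Fmod 2 and Kera 1, so 6 of these 8 genes lay below that median.

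Lum was the member that rose. Of the 10 genes, 1 was called higher and 0 lower in KO glands at a Benjamini-Hochberg adjusted p under 0.05 in limma, where 5.14% of all genes were called higher and 3.55% lower (8.69% in either direction). Rises made up 59.1% of the calls over all genes, and 43.1% when arrays were centred on the median of the genes tested. An unadjusted p under 0.05 was reached by 2 members, Lum and Bgn, against 22.8% of all genes in either direction. The log2 change was above 0 for all 10 members, against 50.2% of all genes, although those of Kera (0.01) and Aspn (0.02) were so small that they turned to -0.040 and -0.034 under that centring. Most members shared the highest and the lowest KO array, so these are not 10 independent signs. Without KO replicate 3 the KO mean was higher for 9 of the 10. The median change of the members was 0.26, that of all genes 0.0004. In whole glands, more cells of a type and more RNA per cell cannot be told apart. As the targeted gene, Ezh2 itself was at 6.86, 7.04, 7.10 and 7.15 in KO replicates 1 to 4 and at 7.08 on each of the 3 WT arrays, so this probe set does not check the genotype.

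Lum, which encodes lumican, a keratan sulfate proteoglycan that regulates collagen fibril assembly, was at 8.05, 8.32, 8.83 and 8.29 in KO replicates 1 to 4, against 6.81, 6.83 and 6.98 in WT replicates 1 to 3. Every KO array lay above every WT array, as for 10.3% of all genes, with more than 1 unit between the groups. The mean was 8.37 ± 0.33 in KO (SD, n = 4) and 6.88 ± 0.09 in WT (SD, n = 3). This is a log2 change of 1.50 (SE 0.17, 95% interval 1.09 to 1.90) or 2.82-fold, with a limma adjusted p of 0.00344, and it ranked 21 of all 22180 genes by size of rise. The change stayed between 1.34 and 1.60 when any single array was left out, with adjusted p values of 0.00432 to 0.0228.

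**Figure D1:**
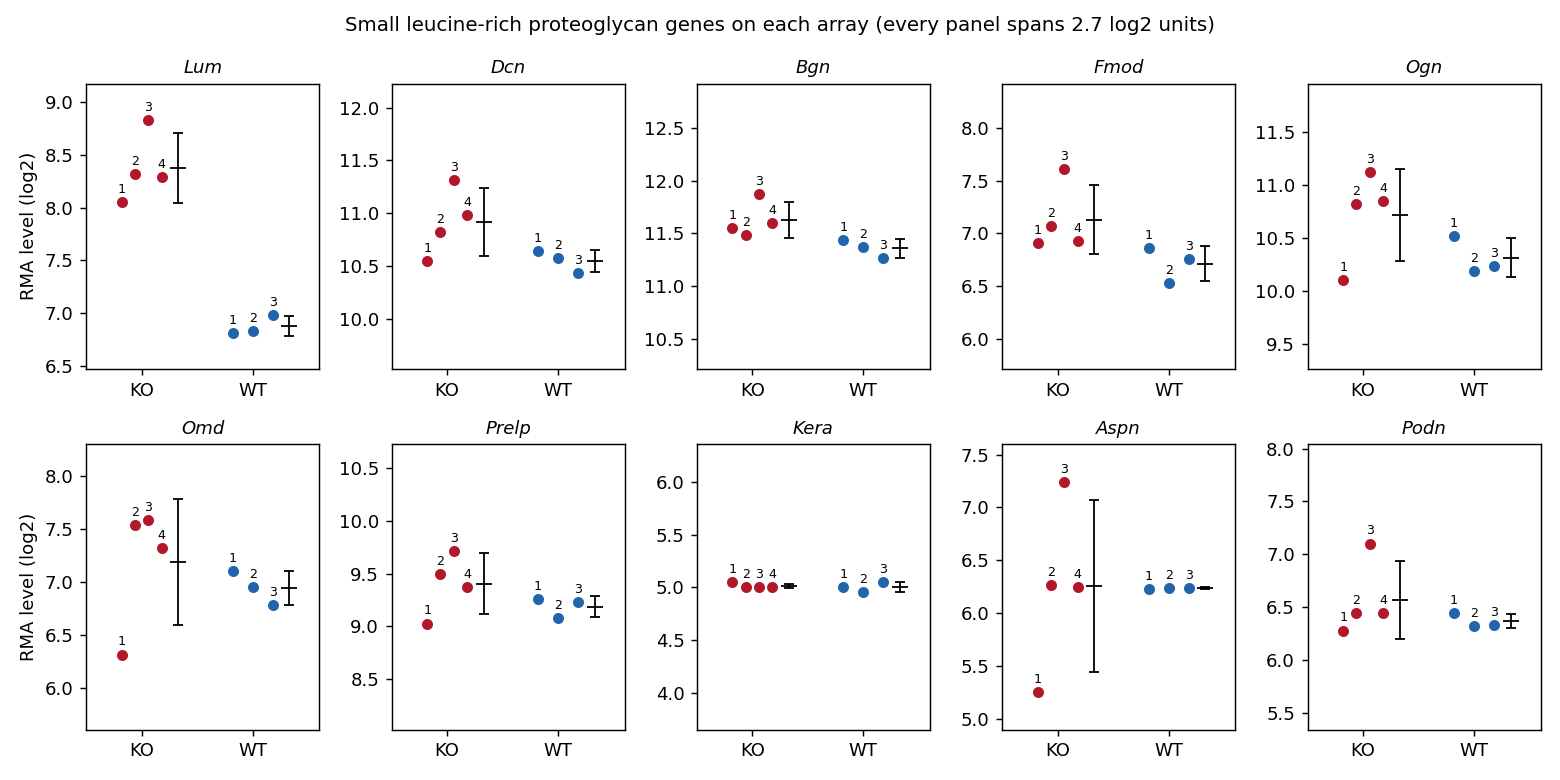
RMA level (log2, vertical axis) of each proteoglycan gene on each of the 4 KO arrays (red, left) and 3 WT arrays (blue, right), with small digits for the replicate and black bars for mean and SD. Each panel spans the same range, so the gap of Lum can be set against the overlap of most other genes and against KO replicates 1 and 3 of Aspn, at 5.25 and 7.24.

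The other class II members did not pass the test. Fmod, whose protein fibromodulin binds collagen near the same site as lumican, was at 6.91, 7.07, 7.61 and 6.93 in KO glands, against 6.86, 6.53 and 6.76 in WT glands. Its groups did not overlap, but the lowest KO value lay only 0.05 above the highest WT value, and the change was 0.41 (SE 0.18, adjusted p = 0.228). A dimmer probe set of Fmod gave 0.20 (adjusted p = 0.207). Prelp, which links basement membranes to collagen, was at 9.03, 9.50, 9.72 and 9.38 in KO glands, against 9.26, 9.08 and 9.23 in WT glands. KO replicate 1 was the lowest of all 7 arrays and the other KO arrays were the highest, a change of 0.22 (SE 0.15, adjusted p = 0.458). A dimmer probe set of Prelp gave 0.12 (adjusted p = 0.510) without this pattern. On it KO replicate 1 was at 5.43, above the 5.22 to 5.28 of WT glands. Omd, a keratan sulfate proteoglycan known from bone, was at 6.31, 7.54, 7.59 and 7.32 in KO glands, against 7.10, 6.95 and 6.78 in WT glands. The pattern was that of the brighter Prelp probe set with a wider spread, and the change was 0.25 (SE 0.31, adjusted p = 0.687). Kera, the keratan sulfate proteoglycan of the cornea, lay between 5.004 and 5.05 in KO glands and between 4.96 and 5.05 in WT glands. The groups overlapped fully, and its change was 0.01 (95% interval -0.08 to 0.10, adjusted p = 0.900).

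None of the class I members passed the test after adjustment. Bgn, a collagen and TGF-beta binding proteoglycan that as a free protein also activates Toll-like receptors, was at 11.55, 11.49, 11.87 and 11.60 in KO glands, against 11.44, 11.37 and 11.26 in WT glands. The groups did not overlap, and the change was 0.27 (SE 0.10, 95% interval 0.04 to 0.50) with an unadjusted p of 0.0263 and an adjusted p of 0.151 in limma. A dimmer probe set of Bgn gave 0.18 (adjusted p = 0.330), with overlapping groups. Dcn, the main dermatan sulfate proteoglycan of loose connective tissue, was at 10.55, 10.82, 11.32 and 10.98 in KO glands, against 10.64, 10.57 and 10.44 in WT glands. KO replicate 1 fell inside the WT range and the other KO arrays above it, a change of 0.37 (SE 0.17, 95% interval -0.03 to 0.76, adjusted p = 0.250). Aspn, a relative of decorin that binds collagen and TGF-beta, was at 5.25, 6.26, 7.24 and 6.25 in KO glands, against 6.22, 6.24 and 6.24 in WT glands. Its KO arrays spread by nearly 2 units, and the means lay close together (6.25 ± 0.81 in KO, SD, n = 4, and 6.24 ± 0.01 in WT, SD, n = 3), so the interval of the change ran from -0.94 to 0.97.

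Ogn, whose protein binds collagen and lacks long sugar chains in many tissues, was at 10.10, 10.82, 11.12 and 10.85 in KO glands, against 10.52, 10.19 and 10.24 in WT glands. KO replicate 1 was again the lowest array, and the change was 0.41 (SE 0.23, adjusted p = 0.352). Podn, a member with extra leucine-rich repeats that inhibits smooth muscle growth in mice, was at 6.28, 6.44, 7.10 and 6.44 in KO glands, against 6.44, 6.32 and 6.33 in WT glands. Only KO replicate 3 lay above all WT arrays, and the change was 0.20 (SE 0.19, adjusted p = 0.581). In the authors' deposited table of KO versus WT, Lum likewise was the only one of the 10 genes with an adjusted p under 0.05 (log2 change 1.47, adjusted p = 0.000513). The next largest log2 changes in the authors' deposited table were those of Fmod (0.48), Ogn (0.39) and Dcn (0.36).

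**Figure D2:**
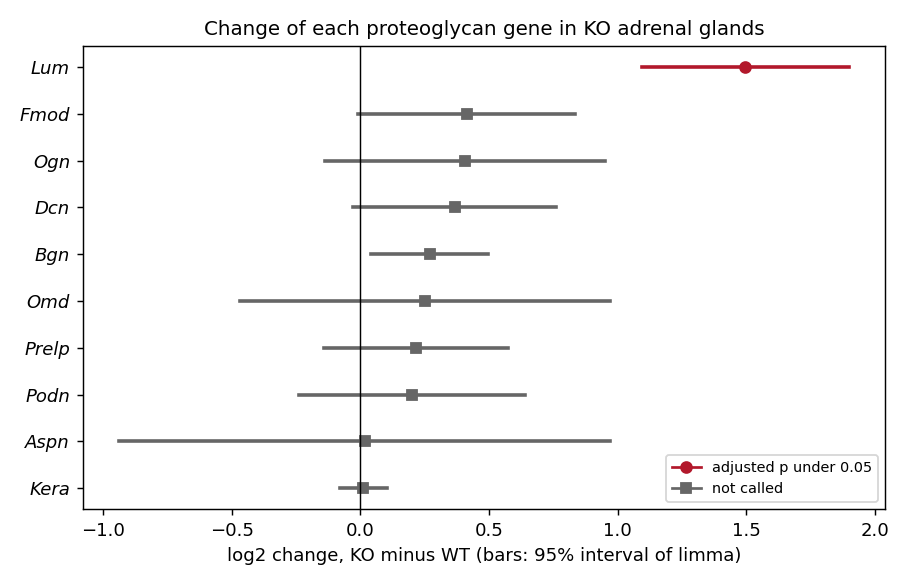
Log2 change of each gene, KO minus WT (horizontal axis), with its 95% interval from limma, sorted by size. Lum stands apart at 1.50, the other 9 genes lie between 0.01 and 0.41, and the interval of Bgn alone among these 9 does not reach 0.

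The KO glands differed among themselves, and most members had the same highest and lowest KO array. By the probe set used for each gene, KO replicate 3 was the highest KO array for 9 of 10 members and KO replicate 1 the lowest for 8 of 10. On the dimmer probe sets of Bgn, Fmod and Prelp, the highest KO arrays were instead replicates 1 (8.21), 2 (5.35) and 4 (5.60). There KO replicate 1 was lowest only for Fmod, tied with KO replicate 3 (5.08). Relative to the WT mean, Aspn, Omd and Ogn were at -0.98, -0.63 and -0.21 on KO replicate 1 and at 1.01, 0.65 and 0.81 on KO replicate 3. Ecm2, a related leucine-rich repeat gene that lies next to Aspn in the annotation, was at 6.67, 7.14, 7.62 and 7.48 in KO glands, against 6.997, 6.79 and 6.76 in WT glands (change 0.38, adjusted p = 0.358). Lum too was highest on KO replicate 3 and lowest on KO replicate 1 among the KO arrays, yet its lowest KO array was still 1.18 above the WT mean. Without KO replicate 1, Ogn (change 0.61, adjusted p = 0.0411) and Omd (change 0.54, adjusted p = 0.0406) passed the test, so that 3 members were called higher, against 4.26% of all genes in the same fit. Dcn (0.49, adjusted p = 0.0985) and Prelp (0.34, adjusted p = 0.120) did not.

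Markers of other cells also differed among the KO arrays, though not all lists had the highest and lowest KO arrays of most members. The mean of 11 stroma and capsule markers was 7.02, 7.27, 7.56 and 7.26 in KO replicates 1 to 4, against 6.79 to 6.82 in WT glands, which puts the KO arrays in the order seen for Lum. Of these 11 markers 4 rose, namely Tcf21 (1.48, adjusted p = 0.00106), Pdgfra (1.25, adjusted p = 0.0113), Gli1 (0.82) and Thy1 (0.68), and 0 fell (1 to 5 rose with 1 array left out). The others were not called, namely Cd34 (0.36, adjusted p = 0.113), Nr2f2 (0.30), Pdgfrb (0.18), Dpt (0.14, adjusted p = 0.868), Pi16 (0.10), Prrx1 (0.03) and Twist2 (-0.14). The mean of 6 smooth muscle and pericyte markers ranged from 7.61 to 8.21 in KO glands, against 7.01 to 7.20 in WT glands, and 2 of the 6 rose, Acta2 (1.41) and Rgs5 (0.88), or 1 to 3 with 1 array left out. The mean of 9 adipocyte markers was 6.91 on KO replicate 1 and 7.82 to 8.74 on the other KO arrays, against 8.23 to 9.30 in WT glands, and 0 of the 9 were called. With the adipocyte mean as a covariate, Lum had a change of 1.69 (adjusted p = 0.0114) and remained the only member called. In that fit the change of Omd was 0.67 (adjusted p = 0.282), that of Ogn 0.64 (adjusted p = 0.259) and that of Aspn 0.54 (adjusted p = 0.537). All 8 chromaffin markers measured rose, with means of 10.85 to 11.10 in KO glands (highest on KO replicate 1), against 9.93 to 10.09 in WT glands, and the part of the medulla in the values of the members was not tested.

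**Figure D3:**
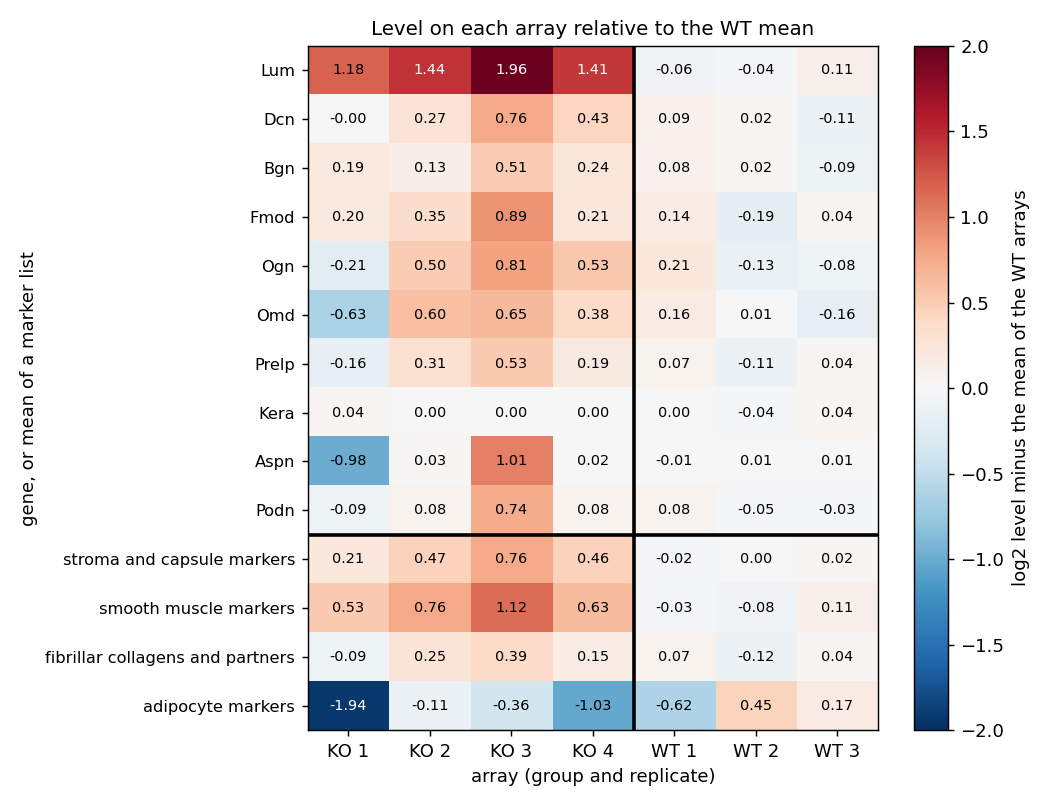
Log2 level on each array minus the mean of the 3 WT arrays, for the 10 genes (upper rows) and for the means of 4 gene lists (lower rows), with KO arrays left of the line and WT arrays right of it. Lum is between 1.18 and 1.96 on all KO arrays, while Omd, Aspn and the adipocyte markers are lowest on KO replicate 1.

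To set the members against the stroma measured in the same gland, the mean of the 11 stroma and capsule markers was subtracted from every gene on each array. Lum minus this mean was 1.04, 1.05, 1.27 and 1.03 in KO glands, against 0.03, 0.03 and 0.16 in WT glands. The groups lay far apart, and the difference was 1.02 (limma SE 0.17, 95% interval 0.69 to 1.35), with an exact two-sided permutation p of 0.0286, the smallest that 35 splits of 7 arrays can give. The subtracted mean averages markers whose own changes ran from -0.14 (Twist2) to 1.48 (Tcf21), and the rises of Tcf21 and Pdgfra were near that of Lum, so the difference is from the mean and not from every marker. Lum was among the 1.52% of genes called higher on this scale, where 82.2% of genes were called lower because the marker mean itself was 0.47 higher in KO glands. Prelp was 2.01, 2.22, 2.16 and 2.11 in KO glands, against 2.47, 2.27 and 2.41 in WT glands, a difference of -0.26 (exact p = 0.0286, limma adjusted p = 0.139). The change of its own level was 0.22, so this difference is below 0 only because the subtracted mean was 0.47 higher in KO glands. It is not a fall of Prelp. Dcn (-0.11, exact p = 0.286), Ogn (-0.07, exact p = 0.714) and Fmod (-0.06, exact p = 0.657) overlapped between the groups. The intervals of these 3 differences were -0.44 to 0.22 for Dcn, -0.40 to 0.26 for Ogn and -0.39 to 0.27 for Fmod. Kera (-0.46) and Aspn (-0.46) were called lower on this scale by limma, with adjusted p values of 0.0112 and 0.0119 and exact p values of 0.0571 and 0.314. The changes of their own levels were 0.01 and 0.02, so nearly all of each difference is that of the subtracted mean. On this scale limma estimated infinite prior degrees of freedom and gave every gene the same SE, so its intervals and calls for single genes rest on that estimate.

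**Figure D4:**
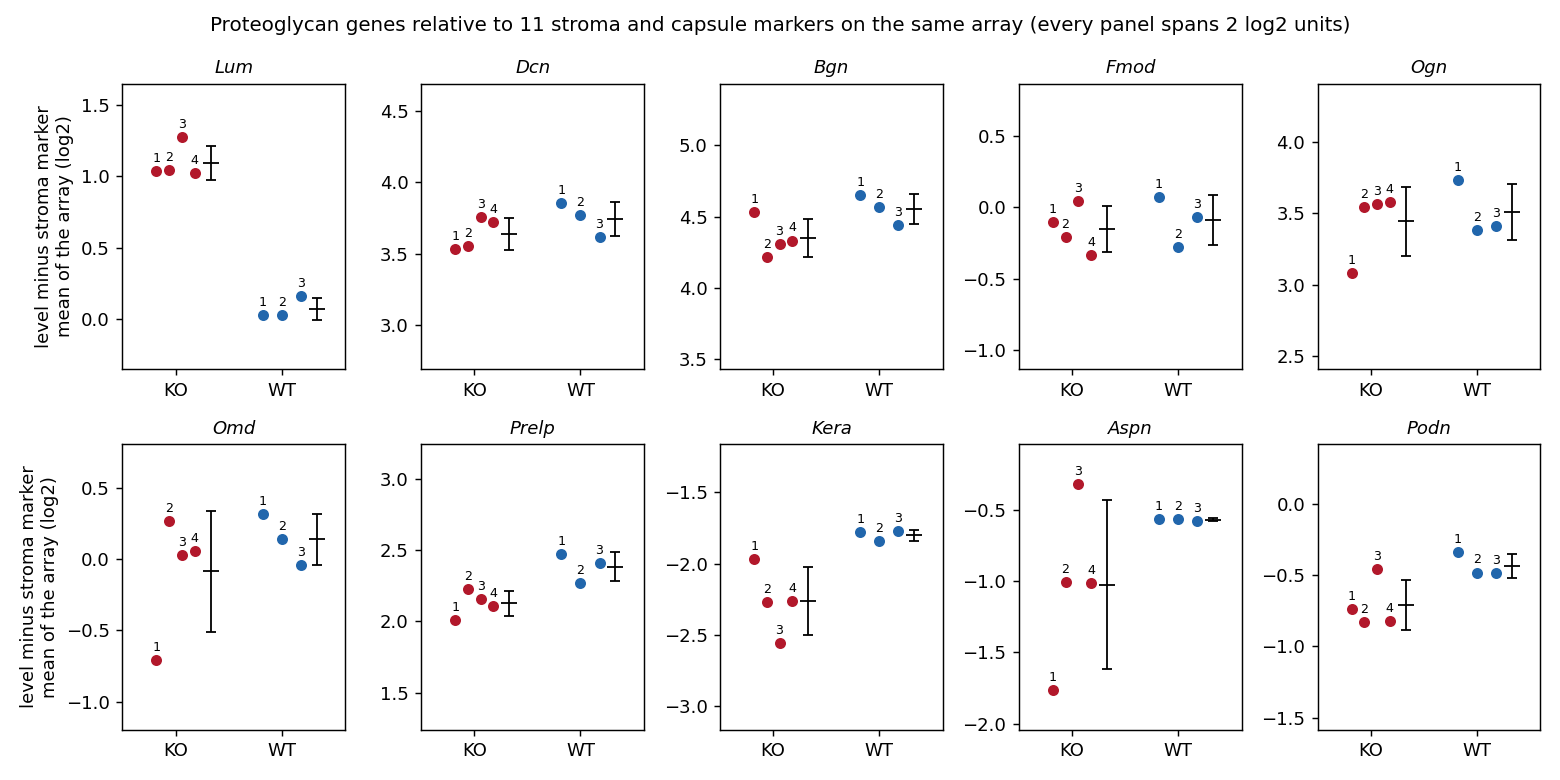
Level of each gene minus the mean of 11 stroma and capsule markers on the same array (log2, vertical axis), for KO (red, left) and WT (blue, right), with replicate digits and black bars for mean and SD. Lum is at 1.03 to 1.27 in KO and 0.03 to 0.16 in WT, whereas Dcn, Bgn, Fmod, Ogn, Omd, Aspn and Podn overlap between the groups.

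Changes were then compared between pairs of members by the difference of their log2 levels on each array, over all 45 pairs. Of the 45 pairs, the 2 groups of arrays lay apart for 12, namely all 9 pairs with Lum and 3 without it. The 9 pairs all use the same values of Lum, whose own groups lay far apart, so they are not 9 separate results. The share of pairs that lie apart over all genes was not computed. The 3 were Bgn with Kera, Fmod with Kera and Fmod with Podn. In the pairs with Lum, the rise of Lum was larger by 1.08 (against Fmod) to 1.49 (against Kera). Against Dcn, its neighbour on chromosome 10, the difference of change was 1.13 (SE 0.12), with KO arrays at -2.69 to -2.48 and WT arrays at -3.83 to -3.45. The exact two-sided permutation p was 0.0286 for each of these 9 pairs, the smallest that splits of these arrays can give. After Benjamini-Hochberg adjustment over the 45 pairs it was 0.129, so none of them passed. From this smallest p, the 9 pairs could not have passed unless many pairs without Lum had reached it too. The adjusted p therefore cannot decide whether the rise of Lum differed from the changes of the other members.

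Among the measured chromosomal neighbours that are not members, Btg2, Atp2b4, Pnck and Scp2 were called and the others were not. The neighbours taken were the 3 nearest measured genes on each side of a member or of a run of adjacent members. Over all genes, 8.69% were called in either direction, and whether neighbours differed from that share was not tested. Around Lum and Dcn on chromosome 10, Btg1, an antiproliferative factor, had a change of 0.48 (adjusted p = 0.0916), and Epyc, the proteoglycan epiphycan, one of 0.01 (adjusted p = 0.969). Next to Prelp and Fmod on chromosome 1, Btg2, a relative of Btg1, was at 8.42 ± 0.24 in KO (SD, n = 4) and 7.31 ± 0.17 in WT (SD, n = 3), and rose by 1.11 (adjusted p = 0.00502). On the other side of that pair, the plasma membrane calcium pump Atp2b4 rose by 0.65 (adjusted p = 0.0149), and Optc, the proteoglycan opticin, had a change of 0.12 (adjusted p = 0.445). Beside Bgn on chromosome X, the kinase gene Pnck rose by 0.45 (adjusted p = 0.0109). Beside Podn on chromosome 4, the sterol carrier Scp2 fell by 0.61 (adjusted p = 0.0270). None of the measured genes around Aspn, Omd and Ogn on chromosome 13 was called by limma at an adjusted p under 0.05.

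The genes whose levels over the 7 arrays were most like those of Lum, by Pearson's r, were Htra1, Serinc5, Inpp4a, Arhgap42 and Islr, with r of 0.992 to 0.994. The r of the deviations from the group means ran from 0.914 for Arhgap42 to 0.974 for Islr. These r describe the same 7 arrays on which the genes were chosen, and members that were not chosen this way reached similar r of deviations with Lum, 0.944 for Aspn and 0.934 for Podn. Htra1, a secreted serine protease, was at 8.10 ± 0.27 in KO (SD, n = 4) and 6.75 ± 0.11 in WT (SD, n = 3). Islr, an immunoglobulin and leucine-rich repeat protein of mesenchymal cells, was at 8.32 ± 0.32 in KO (SD, n = 4) and 7.30 ± 0.01 in WT (SD, n = 3).

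Collagens and other partners of these proteoglycans changed in both directions. The counts of these lists stand beside 5.14% of all genes called higher and 3.55% called lower. Of 11 fibrillar and associated collagens, 2 rose and 1 fell, with a median change of 0.16 beside 0.0004 for all genes. Col12a1, a fibril-associated collagen, rose by 0.97 (SE 0.22, adjusted p = 0.0379), Col1a2, a chain of type I collagen, rose by 0.74 (SE 0.17, adjusted p = 0.0377) and Col6a1 of type VI collagen fell by 0.35 (SE 0.05, adjusted p = 0.00889). Col1a1, the other type I chain, had a change of 0.51 (adjusted p = 0.0899), Col3a1 one of 0.46 (adjusted p = 0.238) and Col5a1 one of -0.40 (adjusted p = 0.0610). The number of collagens called higher was 4 without KO replicate 1, 1 without WT replicate 1 and 0 without any other single array.

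Of the 20 measured enzymes that build chondroitin and dermatan sulfate chains, carried by decorin and biglycan, 2 rose and 0 fell. Xylt1, which starts the chain on the core protein, was at 6.88 ± 0.21 in KO (SD, n = 4) and 6.30 ± 0.08 in WT (SD, n = 3), and rose by 0.58 (adjusted p = 0.0233). Chst11, a chondroitin 4-O-sulfotransferase, rose by 0.55 (SE 0.06, adjusted p = 0.00255). Dse, the epimerase that makes dermatan sulfate, had a change of -0.20, with an unadjusted p of 0.120 in limma. Of 8 enzymes of keratan sulfate synthesis, the chain of lumican and fibromodulin, 0 rose and 1 fell, the galactosyltransferase B4galt1 (-0.43, SE 0.06, adjusted p = 0.00822).

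Among 11 proteases and cofactors that process or cleave these proteoglycans or collagen, 1 rose and 1 fell. Mmp2, a gelatinase, was at 8.61 ± 0.31 in KO (SD, n = 4) and 6.83 ± 0.16 in WT (SD, n = 3), and rose by 1.78 (adjusted p = 0.00221). Pcolce, which enhances procollagen C-proteinase, fell by 0.42 (adjusted p = 0.0113), while that proteinase, Bmp1, which also trims probiglycan, had a change of 0.21 (adjusted p = 0.0682). Of 19 ligands and receptors known to bind members, 2 rose and 0 fell. They were the growth factor Tgfb3 (1.09, SE 0.09, adjusted p = 0.00158) and Egfr, the epidermal growth factor receptor, to which decorin binds (0.99, SE 0.14, adjusted p = 0.00634). Tgfb1 had a change of -0.02, Tlr2 one of -0.20 and Tlr4 one of 0.06.

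Among 21 other proteoglycans, 4 rose and 2 fell. The testicans Spock2 (1.39, adjusted p = 0.00137) and Spock1 (0.83, adjusted p = 0.00616), the brain proteoglycan Bcan (0.46, adjusted p = 0.0202) and versican, Vcan (0.41, adjusted p = 0.0267), rose. The glypicans Gpc5 and Gpc4, heparan sulfate proteoglycans held on the cell membrane, fell by 1.16 and 0.68 (adjusted p = 0.00149 and 0.00719). The third testican, Spock3, had a change of 0.57 (adjusted p = 0.0563), and Ncan, another brain proteoglycan, one of 0.01 (adjusted p = 0.970). Of 15 genes of elastic fibres and collagen crosslinking, 3 rose and 1 fell. Fbn2 (1.02), a fibrillin, Mfap4 (0.91), a microfibril-associated protein, and Loxl1 (0.65), a crosslinking oxidase, rose, and the prolyl hydroxylase subunit P4ha1 fell by 0.51 (adjusted p = 0.0494). Of the 6 other small leucine-rich repeat genes measured, Ecm2, Optc, Nyx, Chad, Epyc and Podnl1, 0 were called by limma at an adjusted p under 0.05, and 0 had an unadjusted p under 0.05. Their changes lay between -0.06 and 0.38.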

How the data were processed

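Total RNA of 7 whole adrenal glands (4 KO, 3 WT) was hybridised to 1-colour Affymetrix arrays with biotin-labelled cDNA, per the labels' protocols. The authors deposited RMA log2 values of 41345 probe sets, per the submitters' processing notes, with array medians of 5.32 to 5.38. RMA corrects background, normalizes by quantiles and summarises probes, which compresses folds of dim genes. The RMA version and genome build were not given in the sources used here. A second table deposited by the authors holds log2 fold changes, p-values and adjusted p-values for 28638 symbols, whose test no source used here gives.

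Exactly 1 symbol was given for 23521 probe sets, several for 1820, and 16004 are unnamed here. The Entrez identifiers of 23328 matched RefSeq's GRCm38.p6, and 0 symbols changed. For the 1082 genes with several probe sets the one with the highest mean was used (22180 genes, no filter on low values). KO was compared with WT by lmFit and eBayes of limma 3.58.1 (R 4.3.3, statmod 1.5.0), two-sided, with Benjamini-Hochberg adjustment over all genes and 5 residual degrees of freedom. The fit was tested on simulated data. Single values were tested by exact permutation over 35 splits.

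The members and lists were chosen with earlier results of these data known. Genes named were the members, Ezh2, list genes, the 3 nearest measured neighbours on each side and the 5 genes most like Lum. Predicted, RIKEN and microRNA neighbours are not named. Alternatives covered probe set choice, filter, variance prior, normalization, array weights, an adipocyte covariate, the replicate number as a block and leaving out each array. The labels call the arrays biological replicates. Same-numbered KO and WT arrays did not deviate together (r of 0.07, -0.08 and -0.11 over genes), so the numbers were not taken as pairs. The number of arrays limits the precision.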

Additional observations from a re-analysis of the deposited data

Results flagged for a closer look

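Among 40 groups of 4 KO values checked with Dixon's test, 3 had an array that stood apart, where chance gives about 5%. The 3 flagged groups are thus near that share. The groups were members, members relative to the stroma markers, and list means, so they share values. Kera was at 5.05 on KO replicate 1, while the other 3 KO arrays all held the same value, 5.004. With such ties the test flags the remaining array however small the gap. Lum minus the stroma marker mean was 1.27 on KO replicate 3 and 1.03 to 1.05 on the others, and without that array its change of level was still 1.34 (adjusted p = 0.00432). Ogn minus the stroma marker mean was 3.08 on KO replicate 1 and 3.55 to 3.58 on the others.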

How the results depend on the processing

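Of 192 values of the 10 members under alternatives, 185 kept their direction and their side of the threshold. Lum was called in each of its 19 alternatives (1.34 to 1.69). Without KO replicate 1 Ogn and Omd were called as well, so 1 to 3 members were called higher and 0 lower when 1 array was left out (changes of 0.27 to 0.61 for Ogn and 0.12 to 0.54 for Omd). Kera turned to -0.0082 with the adipocyte covariate, to -0.040 with arrays centred on the median of the genes tested, a setting added after the data were seen, and ran from -0.011 to 0.033 with 1 array left out. Kera was filtered out when only genes above the median level were kept. Aspn turned to -0.034 with that centring and ran from -0.31 (without KO replicate 3) to 0.35 (without KO replicate 1).

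Over all genes, the adipocyte covariate gave 609 higher and 384 lower, the replicate number as a block 523 and 286, and leaving out 1 array 594 to 945 and 322 to 654, in place of 1140 and 788. Among the fits without 1 array, the lowest counts of each came without WT replicate 3. Centring on the median of the genes tested gave 1329 lower genes and 43.1% of calls as rises in place of 59.1%. Beside 5.14% of all genes called higher and 3.55% lower, the 111 genes in the other matrix lists held 14 higher and 6 lower. With the block these were 9 and 2, with the adipocyte covariate 3 were lower, with that centring 12 were lower, and 8 to 15 were higher and 4 to 6 lower with 1 array left out. The block changed no call of a member (Lum 1.52, adjusted p = 0.0265). Counts of most lists moved too when 1 array was left out, for example 2 to 4 higher among other proteoglycans, 0 to 2 higher among cortex markers and 0 to 1 lower among endothelial markers. The causes were not tested.

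Relative to the stroma markers with 1 array left out, Fmod ran from -0.15 to 0.021, Ogn from -0.13 to 0.052, Prelp from -0.31 to -0.21 (called without KO replicate 3), Podn from -0.36 to -0.23 (called without KO replicate 3), Kera from -0.56 to -0.37 (not called without WT replicate 1) and Aspn from -0.69 to -0.21 (not called without KO replicate 1). Lum stayed between 0.96 and 1.07.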

Other observations

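Further marker lists covered other cells of the gland. Of 8 markers of bone and cartilage cells, 0 were called by limma at an adjusted p under 0.05 and 0 had an unadjusted p under 0.05, with a mean of 5.05 to 5.16 in KO glands and 4.95 to 5.04 in WT glands. Of 5 mesothelial markers, 1 rose, Wt1 (0.96, adjusted p = 0.00257), which gonadal and stromal cells also express, and Upk3b and Msln had changes of -0.11 and -0.08. Of 4 Schwann cell markers, 0 were called, and Erbb3, the receptor of neuregulin, had a change of 0.51 (adjusted p = 0.0676). Of 7 macrophage markers 0 were called, with a median change of -0.29, and of 7 endothelial markers 1 fell, Plvap (-0.42, adjusted p = 0.0464). All 4 X-zone markers (a transient layer beside the medulla) fell, and 1 of 8 cortex markers rose, Scarb1 (0.34).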
